A study of Arabidopsis thaliana with 18 samples.

Results

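The comparison concerns Mt-0 plants that had received salicylic acid (SA), and sets their serial set 3 of arrays against set 2. Mt-0 is a natural accession of Arabidopsis thaliana. The members are the 6 of 18 ATH1 arrays that carry SA at 0.30 mM in 0.02% silwet and whose titles have the serial numbers 85 to 87 (SA set 2) or 88 to 90 (SA set 3). Each set holds replicates 1, 2 and 3, and the arrays were paired by that number. The 6 arrays of the same sets with 0.02% silwet alone, a surfactant that the SA plants received too, served as the background of a difference between sets. What sets 2 and 3 stand for is not stated in the labels, and neither are tissue, age and harvest. Whether replicates are separate plants is not stated either, so a p-value here speaks only of the scatter of these arrays, which may be technical. SA in the labels is read as salicylic acid.

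Salicylic acid is a plant hormone of defence against pathogens that feed on living tissue. Its synthesis starts in the chloroplast. The hormone is sensed by the NPR proteins, and acts through TGA and WRKY transcription factors on pathogenesis-related genes. Enzymes add sugar or methyl groups to it and so take it out of the active pool. Plants that respond to it often also alter genes of the secretory pathway, of jasmonate signalling and of photosynthesis.

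Signals are MAS5 values, scaled to a common trimmed mean, and were compared as log2(signal + 16). The constant of 16 makes a log2 difference of a weak gene smaller than that of its signal. All differences are set 3 minus set 2. Of 22746 Arabidopsis probe sets, the 13647 with the highest mean over the 18 arrays were tested. The tissue was bulk, so fewer cells of a type and less RNA per cell cannot be told apart. Signal of RCA, Rubisco activase of green tissue, was between 2634 and 4329 on the 6 arrays. No seed or flower marker had a named probe set among those tested. The only root marker tested, PYK10, had signals from 32.4 to 204.

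SA set 3 replicate 2 stood apart from the other SA arrays. It correlated with them at r = 0.901 to 0.938 across probe sets, and each of the other 5 reached at least 0.969 with some SA array. On the first principal component, which held 54.5% of the variance, it lay at 57.6 and the other 5 arrays between -21.5 and -3.28. Its median signal of 27.5 was the lowest of the 6 and its highest signal of 8935 the largest. The median size of the log2 difference per probe set was 0.371 to 0.455 in the 5 pairs of arrays that include it. It was 0.177 to 0.244 in the 4 other pairs within a set and 0.166 to 0.242 in the 6 other pairs between sets. Leaving that array aside, 2 SA arrays of different sets were thus about as far apart as 2 of the same set. Control probe sets for both ends of a transcript give a 3′ to 5′ log2 ratio, a measure of RNA quality. Its mean was 0.723 on SA set 3 replicate 2, the highest of the 6 SA arrays, and 0.763 on silwet set 2 replicate 1. By SA set it was 0.337 ± 0.392 (SD, n = 3) in set 3 and 0.333 ± 0.270 (SD, n = 3) in set 2. A two-sided exact permutation test over 20 arrangements gave p = 1, but its smallest possible p is 0.1, so it could not have shown a difference. The part of RNA quality in the results below was not tested.

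**Figure D1:**
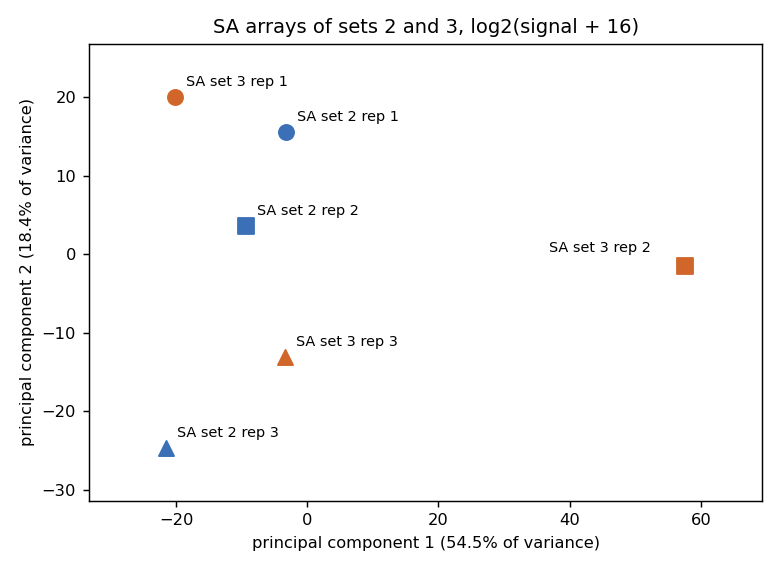
Positions of the 6 SA arrays on the first 2 principal components of log2(signal + 16), with set by colour and replicate number by marker. SA set 3 replicate 2 lies at 57.6 on the first component, and the other 5 arrays lie between -21.5 and -3.28.

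No probe set passed the test of SA set 3 against SA set 2 on the 6 paired arrays, which does not show that the sets were alike. By limma with replicate number as a block, 0 of 13647 probe sets passed an adjusted p of 0.05 (0% called), and the lowest adjusted p was 0.981. At an unadjusted p under 0.05 there were 508 (3.72%), where 682.35 are expected by chance, and these divide into 187 higher (1.37%) and 321 lower (2.35%) in set 3. The sign was the same in all 3 pairs for 3184 probe sets (23.3%). A log2 difference of at least 1 was seen in 16 probe sets in the higher and 26 in the lower direction. The median standard error of a log2 difference was 0.221. A difference several errors wide still did not pass, as for AT3G02480 at 1.67 ± 0.28 (SE, 3 pairs; limma, adjusted p = 0.981). All 3 set 3 arrays lay above all 3 set 2 arrays in 554 probe sets (4.06%) and below them in 557 (4.08%). The same sets under silwet alone also gave 0 called (0%), and 691 probe sets at an unadjusted p under 0.05 (5.06%). There, the 3 arrays of set 3 lay above those of set 2 in 682 probe sets (5%) and below them in 639 (4.68%).

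The genes named here did not pass and are given by their values. They are the probe sets of a single gene with a log2 difference of at least 1, the same sign in all 3 pairs and the smallest unadjusted p. The rule gave 8 genes in either direction. Unless stated otherwise, values without SA set 3 replicate 2 keep the pairing and rest on pairs 1 and 3. Of the 16, only OSM34, WRKY53 and psaA have a gene symbol in the annotation used, and the others are known here by locus code.

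OSM34 encodes osmotin 34, a thaumatin-like protein of the pathogenesis-related group 5 type. Its signals were 15.7, 36.4 and 75.3 in replicates 1, 2 and 3 of SA set 2 and 53.1, 118 and 300.3 in those of SA set 3. The higher array of each pair was the set 3 one, and the difference between replicates within a set was as wide as that between sets, so that the sets overlapped. The log2 difference was 1.42 ± 0.22 (SE, 3 pairs; limma, unadjusted p = 0.000171, adjusted p = 0.981). Without SA set 3 replicate 2 it was 1.46.

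AT3G02480 had signals of 23.6, 29.7 and 16.3 in set 2 and of 73.9, 103 and 159 in set 3. Every set 3 array lay above every set 2 array. The log2 difference was 1.67 ± 0.28 (SE, 3 pairs) and 1.81 without SA set 3 replicate 2. AT5G62360 had 608, 668 and 561 in set 2 and 874, 1636 and 1341 in set 3, again without overlap. Its log2 difference of 1.01 ± 0.25 (SE, 3 pairs) became 0.87 without SA set 3 replicate 2.

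The other 5 of these genes had log2 differences from 1.03 to 1.38. AT1G66760 had 12.2, 3.47 and 17.6 in set 2 against 39.7, 43.0 and 31.8 in set 3, all weak signals. AT4G29030 had 53.2, 214 and 117 against 268, 297 and 219. In both genes the sets did not overlap, though by a narrow margin in AT4G29030. AT1G62500 had 8.72, 106 and 91.6 in set 2 against 196, 165 and 131 in set 3, so that replicate 1, with a log2 difference of 3.10, supplied most of its mean of 1.38. AT1G30700 and AT1G47400 overlapped between sets, with 48.7 as the highest set 2 signal and 32.6 as the lowest set 3 signal of AT1G30700. For AT1G47400 the pairs differed by 0.40, 0.30 and 2.61, which makes replicate 3 its main source.

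WRKY53 encodes a transcription factor of leaf senescence and defence. Its signals were 94.8, 64.1 and 255 in SA set 2 and 44.7, 18.9 and 33.3 in SA set 3. No set 3 array reached the lowest set 2 array, and set 2 replicate 3 stood well above its 2 companions. The log2 difference was -1.51 ± 0.31 (SE, 3 pairs; limma, unadjusted p = 0.00108, adjusted p = 0.981), and -1.66 without SA set 3 replicate 2. With the block dropped and SA set 2 replicate 3 left out it was -1.0. The other WRKY factors tested showed no such size, and WRKY6 had 61.8, 42.9 and 118 against 60.6, 38.5 and 86.2.

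AT4G39830 had the lowest log2 difference of the 16, at -1.59 ± 0.28 (SE, 3 pairs). Its signals were 76.4, 57.6 and 259 in set 2 and 31.5, 10.3 and 38.7 in set 3. As in WRKY53, the sets did not overlap and set 2 replicate 3 was high, and the difference was -1.01 without that array and without the block. AT5G52760, with 206, 154 and 337 against 104, 57.6 and 95.8, and AT1G57630, with 113, 77.2 and 195 against 47.2, 38.2 and 59.0, also kept apart. Their log2 differences were -1.25 and -1.10.

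For AT5G18470, AT1G10340 and AT1G66880 SA set 3 replicate 2 was well below the other set 3 arrays. AT5G18470 had 269, 187 and 411 in set 2 against 182, 51.1 and 144 in set 3, and its log2 difference was -1.18, or -0.97 without that array. AT1G10340 had 81.0, 40.9 and 207 against 62.2, 2.83 and 51.1, and the same change of arrays took it from -1.21 to -1.02. AT1G66880 had 139, 122 and 264 against 117, 26.8 and 91.0, with log2 differences of -1.10 and -0.80. The chloroplast gene psaA, for a core protein of photosystem I, had 1351, 465 and 1003 against 633, 162 and 675. Its log2 difference of -1.02 became -0.82. With the block dropped as well as the array, the values were -0.71 for AT5G18470, -0.56 for AT1G10340, -0.60 for AT1G66880 and -0.39 for psaA.

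SA set 3 replicate 2 was the lowest of its set for 8 of the 8 genes in the lower direction, and for 49.3% of all tested probe sets. SA set 2 replicate 3 was the highest of its set for 7 of the 8, and for 36.4% of all tested probe sets. In the higher direction SA set 3 replicate 2 was the highest of its set for 3 of 8 genes. The sets did not overlap for 5 of the 8 higher and 6 of the 8 lower genes, beside 4.06% and 4.08% of all tested probe sets. The naming rule favours such counts by its terms of size and sign.

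**Figure D2:**
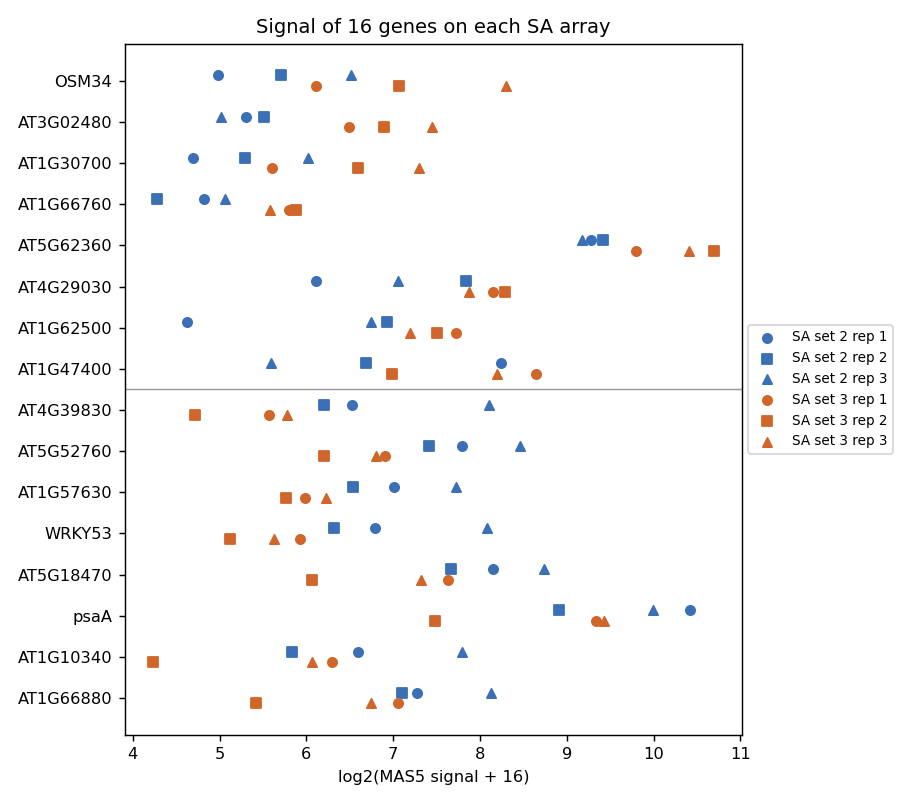
Signal of the 16 named genes on each of the 6 SA arrays, as log2(signal + 16), with set by colour and replicate number by marker. The 8 genes above the line are higher in set 3 and the 8 below it lower. SA set 3 replicate 2 is the lowest set 3 array for each of the 8 lower genes.

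The same 16 genes were then read on the silwet arrays, which the naming rule did not use. An SA and a silwet array of the same set and number differed by a median log2 size of 0.141 to 0.301, and the labels do not say whether they were handled together. All 8 genes of the lower direction had negative log2 differences under silwet too, from -1.28 to -0.23, and 7 of the 8 had an unadjusted p under 0.05. Over all tested probe sets, 384 (2.81%) were lower and 307 (2.25%) higher at that threshold. WRKY53 had silwet signals of 152, 49.2 and 204 in set 2 and 32.0, 46.1 and 59.4 in set 3, a log2 difference of -1.14 ± 0.32 (SE, 3 pairs). AT5G52760 differed by -1.25 and AT1G57630 by -1.28 under silwet, against -1.25 and -1.10 under SA. None of the 8 kept the silwet sets fully apart.

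The 8 genes of the higher direction had log2 differences from -0.15 to 0.79 under silwet, and 4 of the 8 were above 0. OSM34 had 13.7, 68.9 and 268 in silwet set 2 and 51.0, 64.5 and 197 in silwet set 3, a difference of 0.23 ± 0.29 (SE, 3 pairs). AT5G62360 had 748, 725 and 891 against 555, 799 and 792, a difference of -0.15. AT1G62500 had the highest value, at 0.79 with an unadjusted p of 0.012 (limma). AT3G02480 had 53.4, 61.2 and 139 in silwet set 2 and 169, 158 and 15.7 in silwet set 3. Its pairs differed by 1.42, 1.17 and -2.29, which gave a mean of 0.10 ± 0.64 (SE, 3 pairs).

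Whether the difference between sets itself differed between SA and silwet was tested on the 12 arrays. By limma 0 of 13647 probe sets passed (0% called), the lowest adjusted p was 0.378, and 1638 (12%) had an unadjusted p under 0.05. Without SA set 3 replicate 2 that last count was 872 (6.39%). Adjusted p for the 16 named genes ran from 0.378 to 0.997. These genes were named for a large SA difference, which favours a difference of differences of the same sign, and the standard errors do not allow for that. The difference of differences was 1.20 ± 0.38 (SE) for OSM34, 1.16 ± 0.21 (SE) for AT5G62360 and -1.08 ± 0.28 (SE) for AT4G39830. It was -0.37 ± 0.34 (SE) for WRKY53 and 0.00 ± 0.34 (SE) for AT5G52760.

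**Figure D3:**
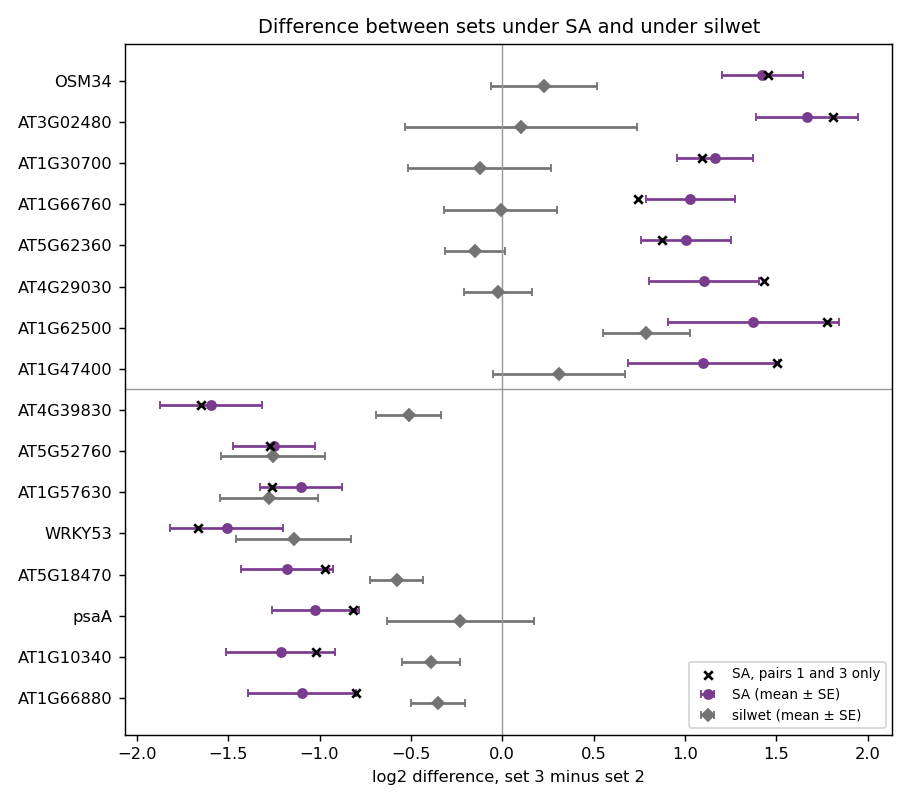
Log2 difference of set 3 minus set 2 for the 16 named genes, under SA (circles) and under silwet (diamonds), with bars of 1 standard error from limma on 3 pairs each; crosses give the SA difference from pairs 1 and 3 alone. The 8 genes below the line are negative under both treatments, and the 8 above it lie between -0.15 and 0.79 under silwet.

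Leaving out or weighting arrays changed the count of calls. With limma's array weights and no block, 2 probe sets passed (0.0147%), AT3G02480 with a log2 difference of 1.87 (adjusted p = 0.0438) and a probe set with no gene in the probe table. With replicate number as a block and SA set 3 replicate 2 left out, its partner gives no pair, and 2 pairs remain. Then 9 probe sets passed (0.0659%), 4 higher and 5 lower, and without the block 0 passed. The named ones were OSM34 (log2 difference 1.46, limma adjusted p = 0.0429), AT3G02480 (1.81, adjusted p = 0.0202), AT4G39830 (-1.65, adjusted p = 0.0429) and petG (-1.97, adjusted p = 0.0202). The other 5 probe sets have no single gene in the probe table.

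The chloroplast gene petG, for a small subunit of the cytochrome b6f complex, lies outside the naming rule and was chosen after its values were seen. Its signals were 172, 17.5 and 76.6 in SA set 2 and 12.2, 20.4 and 23.9 in SA set 3. Replicates 1 and 3 of set 2 were high, and replicate 2 was close to the set 3 arrays. Under silwet petG had 189, 53.3 and 26.2 against 38.1, 12.4 and 14.7, a log2 difference of -1.22, beside -1.28 under SA.

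With replicate 1 left out of both sets, 35 probe sets passed (0.256%), 11 higher and 24 lower. Of these, 8 were among the 16 named genes. OSM34 and AT3G02480 were in the higher direction. WRKY53 (-1.83, limma adjusted p = 0.0129), AT4G39830, AT5G52760, AT5G18470, AT1G10340 and AT1G66880 were in the lower direction. A further 6 had a single gene: SAG29, BSMT1, AT5G05250 and AT5G48490 higher, and AT1G35710 and AT3G25610 lower. For each of these 6 the pair of replicate 1 pointed the other way. This fit rests on 2 pairs, and one of its 4 arrays is SA set 3 replicate 2. With replicate 3 left out 1 probe set passed (0.00733%).

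The probe set without a gene that passed with array weights had the lowest unadjusted p of all in the comparison of the 6 arrays (limma, 0.000125). Its signals were 93.1, 96.1 and 204 in SA set 2 and 361, 494 and 440.2 in SA set 3, far apart. It was named after its values were seen. The log2 difference was 1.67 ± 0.25 (SE, 3 pairs), and it was 0.22 under silwet. It was the only probe set to pass when all 18 arrays shared 1 estimate of the spread (adjusted p = 0.0423, 0.00733% called), and none passed in that fit without SA set 3 replicate 2.

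Salicylic acid genes of the lists did not pass. The 26 lists hold 270 genes, of which 54 had a probe set with a single gene and 50 of these were tested, with 0 called. Of 9 SA response and pathogenesis-related genes, 1 could be tested. This was GRX480, a glutaredoxin that binds TGA factors, with 60.5, 72.6 and 158 in set 2 against 66.3, 51.9 and 83.1 in set 3. Its log2 difference was -0.36, and -0.53 under silwet.

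Of 16 genes of SA synthesis, signalling and conjugation, 3 were tested, and 0 passed. SAG101, a partner of the immune regulator EDS1, had 37.7, 32.2 and 59.6 against 32.6, 15.3 and 29.5, a log2 difference of -0.50. UGT76B1, a glucosyltransferase that acts on SA, had 22, 23.9 and 68.5 against 30.0, 9.68 and 27.8. Both genes overlapped between the sets, and the high array was set 2 replicate 3. BSMT1, which makes methyl salicylate, was weak in set 2, at 20.5, 11.3 and 4.46, and ranged from 2.68 to 71.5 in set 3. UGT76B1 differed by -1.0 under silwet and by -0.44 under SA.

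Other defence genes had values of the same order. PUB24, a ubiquitin ligase that dampens immune signalling, had 84.1, 66.1 and 118 in set 2 and 60.9, 53.8 and 52.4 in set 3. The sets did not overlap, and the log2 difference was -0.53. STZ, a zinc finger factor of rapid stress responses, had 157, 135 and 303 against 144, 113 and 172. In STZ too, set 2 replicate 3 was the high array. The jasmonate-responsive thionin gene THI2.1 had 21.5, 28.0 and 9.32 against 54.4, 21.0 and 19.1, a log2 difference of 0.38. Under silwet it was 1.03, from pairs of 2.20, 0.98 and -0.09. The other jasmonate genes tested, PDF1.2 and PDF1.2b, differed by -0.01 and 0.27 under SA and by 0.03 and 0.62 under silwet.

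Of 2 mitochondrial respiration and 2 aliphatic glucosinolate genes tested, NDB2 and BCAT4 kept the sets apart. Over all tested probe sets, set 3 lay fully above set 2 in 4.06% and fully below it in 4.08%. NDB2, an external NADH dehydrogenase of mitochondria, had 203, 196 and 235 in set 2 and 147, 85.9 and 157 in set 3. Its log2 difference was -0.67 ± 0.21 (SE, 3 pairs) and -0.48 without SA set 3 replicate 2. Under silwet NDB2 differed by -0.53, and set 3 lay fully below set 2, as it did for 4.68% of all tested probe sets. The second respiration gene tested, IDH-VI, had a log2 difference of -0.02 under SA. BCAT4, an aminotransferase that starts methionine chain elongation for aliphatic glucosinolates, had 319.9, 698 and 486 against 1061, 868 and 808. That gave 0.90 ± 0.29 (SE, 3 pairs), 1.20 without SA set 3 replicate 2, and 0.46 under silwet. The second gene tested of that pathway list, AT2G31790, had a log2 difference of 0.13.

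Genes of endoplasmic reticulum folding and secretion were all below 0 and 0 passed. Of 16 listed, 6 were tested, and their median log2 difference was -0.41 beside -0.03 over all tested probe sets. Of all 13647 tested probe sets, 7431 were below 0. BZIP60, a transcription factor of the unfolded protein response, had 364, 265 and 574 in set 2 and 221, 308.5 and 281 in set 3. Its log2 difference was -0.49 under SA and -0.67 under silwet. The calreticulin CRT1b had 672, 736 and 905 against 689, 392 and 722, and the J-domain protein ATERDJ3B had 392, 408 and 607 against 411, 225 and 417. For CRT1b and ATERDJ3B the pair of replicate 1 was level and SA set 3 replicate 2 was the low array. The summed signal of the 6 members was 2543, 2517 and 3430.3 in set 2 and 2573, 1896 and 2381 in set 3. Without SA set 3 replicate 2 the median was -0.20, with 5 of the 6 below 0. Under silwet the median was 0.17, with 4 of the 6 above 0. After quantile normalization or 75th-percentile scaling, 5 of the 6 were below 0.

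Nuclear genes of light harvesting and the photosystems ran the other way, and 0 of 7 passed. All 7 tested members were above 0, with a median log2 difference of 0.44, and 6216 of all 13647 tested probe sets were above 0. PSBW, a small subunit of photosystem II, had 2376, 1955 and 2242 in set 2 and 2263, 4809 and 2584 in set 3. PSBY, of the same complex, had 2761, 2524 and 2650.5 against 2908, 4888 and 3244. The antenna protein LHCB4.2 had 875, 988 and 1016 against 799, 1978 and 1411. In each, SA set 3 replicate 2 was the highest array by far, and replicate 1 was level. The median over the 7 was -0.13 in pair 1, 1.07 in pair 2 and 0.29 in pair 3. It was 0.067 without SA set 3 replicate 2, with 5 of 7 above 0, and 0.17 after quantile normalization, again with 5 of 7. Under silwet the median was 0.14, with 6 of 7 above 0.

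Genes of the chloroplast's own genome changed sign between pairs. Of 69 probe sets, 66 were tested and 0 passed, with 40 above and 26 below 0 and a median of 0.11. In pair 1 set 3 was below set 2 for 64 of the 66, in pair 2 it was above for 61, and in pair 3 it was above for 50. The median log2 differences of the 3 pairs were -0.52, 0.74 and 0.11, beside 0.046, -0.118 and 0.006 over all tested probe sets. Summed over the 66, signal was 95925, 57708 and 54666 in SA set 2 and 67898, 105671 and 59413 in SA set 3. Set 2 replicate 1 and set 3 replicate 2 were thus the high arrays. Without SA set 3 replicate 2 the median was -0.22, with 9 above and 57 below 0, and after quantile normalization it was -0.04, so its direction depended on both choices. Under silwet 14 were above and 52 below 0, with a median of -0.19, and set 3 was below set 2 for 54, 37 and 48 of the 66 in pairs 1, 2 and 3.

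The medians of all classes of chloroplast genes except RNA polymerase were below 0 in pair 1 and above 0 in pair 2. The median of the 6 ATP synthase genes was -0.88 in pair 1 and 1.10 in pair 2, and that of the 15 photosystem II genes -0.56 and 0.94. The 14 ribosomal protein genes had -0.51 and 0.55. The median of the 3 RNA polymerase genes did not cross 0 between these pairs, with -0.86 and -0.23. Of the 3, rpoA did cross, with -0.53 and 0.73. Among single genes, rpoC1 of that polymerase had 491, 328 and 173 in set 2 and 186, 277 and 158 in set 3. The ribosomal protein gene rpl33 had 942, 628 and 1113 against 966, 1891 and 1369. The 12 tested probe sets of the mitochondrial genome had a median of -0.08, with 9 below 0.

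**Figure D4:**
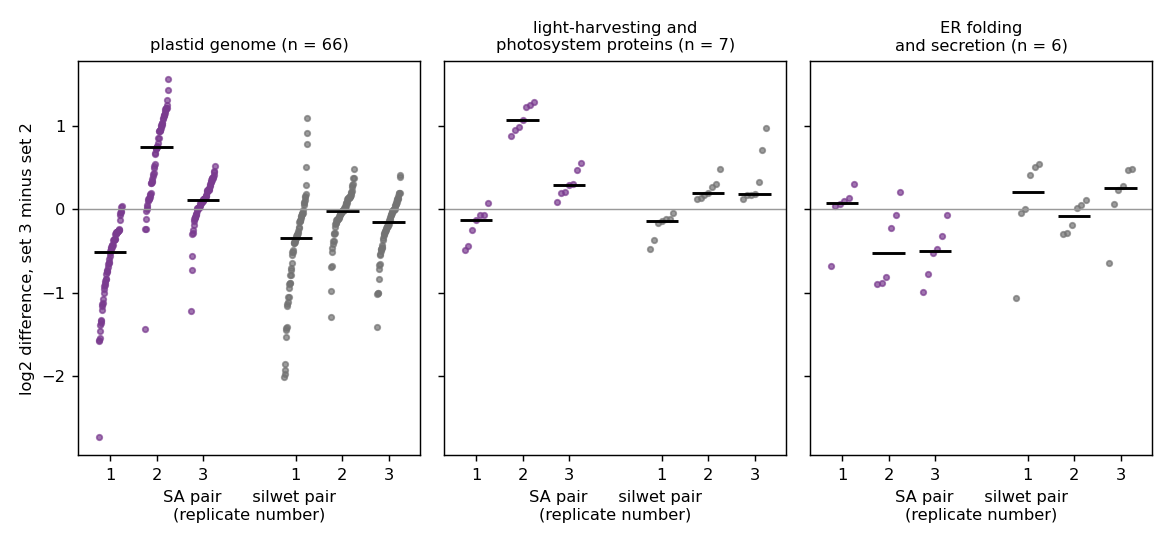
Log2 difference of set 3 minus set 2 within each pair of arrays, for tested members of 3 gene groups, under SA (left points of each panel) and under silwet (right points). Bars mark the median over members, which for the chloroplast genome is -0.52, 0.74 and 0.11 in SA pairs 1, 2 and 3.

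Cold, clock and pigment genes also varied by array. COR15A, a cold-regulated chloroplast protein, had 4029, 2527 and 2297.5 in SA set 2 and 3515, 6617 and 3270.4 in SA set 3. The dehydrin COR47 had 2040, 1430.2 and 1413 against 3067, 1701 and 1628. The highest array was SA set 3 replicate 2 for COR15A but replicate 1 for COR47. The clock gene GI had 602, 446 and 529 in set 2 against 427, 160 and 485 in set 3. Its log2 difference was -0.67, or -0.30 without SA set 3 replicate 2. Under silwet GI had 120, 313 and 373 against 491, 338 and 430. That gave a log2 difference of 0.73, from pairs of 1.90, 0.10 and 0.20, so that replicate 1 supplied most of it. For GI the difference of differences was -1.40 ± 0.44 (SE; limma, adjusted p = 0.378). DFR, a reductase of anthocyanin synthesis, had 140, 64.9 and 30.6 against 187, 56.8 and 59.7, where the replicates of a set were spread more widely than the sets. Under silwet DFR had 75.4, 61.8 and 22.8 against 469.9, 144 and 41.6, a log2 difference of 1.34 (limma, unadjusted p = 0.00361, adjusted p = 0.832). The difference of differences was -1.03 ± 0.39 (SE; limma, adjusted p = 0.385). The median of the 2 tested genes of that list was 0.15 under SA and 1.49 under silwet. SAG29, a sugar transporter of senescing leaves, had 51.4, 26.1 and 24.3 against 25.2, 235 and 94.1. Its log2 difference of 1.10 became 0.37 without SA set 3 replicate 2.

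The lists of detoxification and redox, heat shock and auxin response had 3, 2 and 3 members tested, with median log2 differences of -0.33, -0.05 and 0.04. The lists of flowering time, nutrition, cell division, seed markers and flower markers had none. The 18 families defined by symbol, those of chloroplast and light-harvesting genes among them, held 313 probe sets, of which 196 were tested and 0 were called. The 25 UDP-glycosyltransferases had a median log2 difference of 0.01, the 15 cytochromes P450 of 0.00 and the 7 glutathione transferases of 0.01. The lowest of the P450 genes was CYP71B23, with 218, 176 and 387 against 215, 94.2 and 192. The 13 xyloglucan endotransglucosylases and expansins had a median of 0.13, with 9 above 0. EXPA4, an expansin that loosens cell walls, had 75.7, 149 and 118 against 189, 192 and 146, a log2 difference of 0.59. BGLU16 of the beta-glucosidases differed by 0.50 and TBL39 of the trichome birefringence-like proteins by 0.49. TBL39 kept the sets apart, at 35.2, 49.8 and 40.2 against 62.9, 78.8 and 54.8. Among 3 reference genes tested, AT4G34270 had 111, 109 and 117 in set 2 and 100.2, 85.2 and 95.3 in set 3, without overlap. Its log2 difference was -0.23 under SA and 0.19 under silwet, and the sets overlapped in the other 2 reference genes. Over the 3, the log2 differences under SA ran from -0.23 to 0.21.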

How the data were processed

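The deposited values are probe set intensities on a linear scale, 1 table of 18 ATH1 arrays made by the authors with MAS5, per the submitters' processing notes; no version is named there, and the genome build is not given in the sources used here. Genes were named through the platform's probe table and RefSeq gene identifiers: 13513 probe sets had 1 gene and 8730 are unnamed here. Members and gene lists were chosen with earlier results of these data known, and the families of organelle genes were redefined after the probe table was seen. SA set 3 minus SA set 2 was fitted by limma 3.58.1 in R 4.3.3 (lmFit, eBayes with trend, two-sided, Benjamini-Hochberg over 13647 probe sets, threshold 0.05) on log2(signal + 16), with replicate number as a block because the comparison is defined as paired. Silwet sets were fitted likewise, and the difference of differences with SA and silwet arrays of the same set and number as pairs. The procedure was run on simulated data with the same spread for every probe set and no array that stands apart. That run therefore does not vouch for the test on these arrays. Named genes were to be the 12 largest called differences per direction. As 0 were called, places went to the smallest unadjusted p among probe sets of 1 gene with the same sign in 3 pairs and a log2 difference of at least 1, plus up to 4 members per list. Alternatives were the block, pseudocounts of 1 and 64, scaling, filter, array weights, more arrays in the fit and arrays left out. The number of arrays limits the precision.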

Additional observations from a re-analysis of the deposited data

How the results depend on the processing

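The 0 calls between the SA sets held in either direction with no replicate block, with pseudocounts of 1 and 64, after quantile normalization or 75th-percentile scaling, with every probe set tested, with all 9 SA arrays, and when any 1 of the 6 arrays was left out without the block. Probe sets called higher numbered 1 with all 18 arrays, 2 with array weights and 4 without SA set 3 replicate 2 under the block, where 5 were called lower. The fit of 18 arrays without SA set 3 replicate 2, chosen after seeing the data, gave 0. Without replicate 1, 2 or 3 in turn, calls ranged from 1 to 11 higher and from 0 to 24 lower. For the silwet sets they ranged from 0 to 22, and for the difference of differences from 0 to 9. These fits have fewer arrays, and the cause of their calls was not tested.

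The replicate numbers only partly tie SA arrays across sets: deviations from the set means correlated at -0.06, 0.03 and 0.34 for replicates 1, 2 and 3. With no replicate block 0 were called and 350 had an unadjusted p under 0.05, beside 508 with it.

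Among the single genes, 1039 of the recomputed values kept their sign and side of the threshold, 29 passed it and 12 turned sign. RCA was -0.078 after quantile normalization and -0.021 without SA set 3 replicate 2 under the block, and it ran from -0.021 to 0.48 when replicates 1, 2 or 3 were left out in turn. DFR was -0.11 without SA set 2 replicate 3 and -0.18 without SA set 3 replicate 1. Likewise BSMT1 ran from -0.013 to 1.52 and AT2G31790 from -0.054 to 0.50. STZ was 0.015 with array weights. WRKY6 was 0.37 with array weights, 0.15 without SA set 2 replicate 3 and 0.060 without SA set 3 replicate 2 and no block. The cause was not tested. The main limits are 3 arrays per set, 1 of which stands apart, sets of unstated meaning, and the few listed genes that the probe table names. Weak signals close to the constant of 16 limit what can be seen.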
